A study of Mus musculus with 4 samples.

Results

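The clustered protocadherins are cell surface proteins of the cadherin family, encoded by the alpha, beta and gamma gene clusters that follow one another on mouse chromosome 18. All genes named as an alpha, beta or gamma protocadherin isoform were taken, by a pattern on the gene symbol matched to the gene identifiers in the files. This gave 24 gene rows of 41388. They were 22 beta genes (Pcdhb1 to Pcdhb22), 1 row for the alpha cluster and 1 row for the gamma cluster, called the alpha row and the gamma row here.

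A neuron chooses a small set of these isoforms, largely at random, by switching on individual promoters. The proteins pair on the cell surface and bind only partners of the same kind, which lets the branches of a neuron recognise and avoid each other. In the alpha and gamma clusters, each isoform has its own first, variable exon for the extracellular part, spliced to constant exons that all isoforms of the cluster share, whereas each beta gene is a complete single exon. The promoter choice depends on the insulator protein CTCF, the ring-shaped cohesin complex and DNA methylation, and gamma protocadherins are needed for the survival of spinal interneurons.

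The study sequenced RNA of EGFP-positive cells sorted from thoracic, lumbar and sacral dorsal root ganglia, which hold the cell bodies of sensory neurons, with 1 female library (female A) and 3 male libraries (male A, male B and male C). All libraries carry the genotype label Tg(Ret-EGFP)SJ/, the strain C57BL/6 and the stage P2, and none was treated. The series' design text describes the animals as heterozygotes with EGFP inserted at the Ret locus, the gene of a receptor tyrosine kinase used by a subset of sensory neurons. The genotype label reads as a transgene instead, and the sources used here do not settle which is right. By the design text, EGFP marks cells that use the Ret locus, not 1 neuron type. Each library holds the pooled ganglia of 1 animal, 40 ganglia for female A and 20 for each male. The labels call the source of female A and male A a P2 mouse and that of male B and male C an embryo, although the stage label is P2 for both. The sources used here do not say what this wording stands for (age, processing or a text error). The 2 libraries on each side are called the P2 mouse pair and the embryo pair, and the only female lies in the P2 mouse pair. P-values measure the spread between these 4 libraries only.

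The libraries held 17388493 to 28066448 gene counts and 20551 to 22269 genes with a count. Sensory neuron markers (9 genes) were present in every library, with a summed level of 7264 to 7696 CPM (counts scaled to the library's total) in the P2 mouse pair and 11908 to 12670 in the embryo pair, and no gene at 0. By edgeR's test between the pairs, 5 of them fell in the P2 mouse libraries, with the widest gap in Tubb3 (2038 and 1849 against 5514 and 5189 CPM), and Slc17a6 was higher (572 and 556 against 448 and 420 CPM). Isl1 (570 and 588 against 454 and 459 CPM) did not pass. With the GC and length offsets described below, Slc17a6 was called lower instead (log2 fold change -0.26, edgeR adjusted p = 0.043). With a term for sex it did not pass (adjusted p = 0.175). Under those offsets 0 neuron markers were higher and 7 lower, against 12.8% and 20.3% of all genes. Schwann cell markers (8 genes) summed to 4755 and 7606 CPM against 2981 and 2992, again with no gene at 0. Fibroblast markers (6 genes) summed to 1374 and 1515 CPM against 295 and 318. Satellite glia markers (5 genes) summed to 375 to 686 CPM, with Kcnj10 and Cdh19 higher and Fabp7 and Glul lower in the P2 mouse pair. The sums were 90.7 to 99.0 CPM for endothelial and mural markers (5 genes) and 1.00 to 2.76 CPM for macrophage markers (5 genes), with C1qa at 0 in male B and male C. Marker levels thus differed between the pairs. Satellite glia markers were called in both directions, and neuron markers were so only without the offsets and without the term for sex. Their part in the results between the pairs was not tested, and in such bulk samples fewer cells of a type and less RNA per cell cannot be told apart.

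The alpha row (ENSMUSG00000007440, listed under the symbol Pcdha11) spans bases 36930285 to 37187657 of chromosome 18 on the forward strand (GRCm38). It joins 12 exons with 24670 bases. Of these, 3 are constant exons, which make up 11.6% of its length, and 9 are variable exons. In the GENCODE M21 annotation those variable exons belong to Pcdha1, Pcdha2, Pcdha4, Pcdha9, Pcdha11 (a symbol that 2 gene identifiers carry), Pcdha12, Pcdhac1 and Pcdhac2. The variable exons of Pcdha3, Pcdha5, Pcdha6, Pcdha7 and Pcdha8 are not in the row. The count of the alpha row is therefore a reading of the cluster, and the c-type isoforms Pcdhac1 and Pcdhac2 were not measured separately.

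The gamma row (ENSMUSG00000023036, listed under the symbol Pcdhgc4) spans bases 37674335 to 37841873 on the same strand, with 12 exons and 26094 bases. It also holds 3 constant exons, 8.1% of its length, and 9 variable exons. These belong to Pcdhga3, Pcdhga8, Pcdhga9, Pcdhga11, Pcdhga12, Pcdhgb6, Pcdhgc3, Pcdhgc4 and Pcdhgc5. The other 13 gamma isoforms of M21 have no variable exon in the row. Pcdhgc4 has a known role in neuronal survival, but its own level, like those of Pcdhgc3 and Pcdhgc5, cannot be read from this row.

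The 22 beta genes lie between the alpha and gamma rows, from base 37264998 to base 37521419 on the forward strand, and each was counted over a single exon of 2340 to 7131 bases. Between them and the gamma row lie Slc25a2, a mitochondrial carrier gene, and Taf7, which encodes a subunit of the general transcription factor TFIID, both on the reverse strand. Beta genes resemble each other in sequence. The share of a gene's 50-base words that another gene also holds ran from 0% to 12.0%, highest in Pcdhb12, which shares words with Pcdhb11, and 11.3% in Pcdhb21, which shares them with Pcdhb22. The sources used here do not say how reads matching several genes were treated, so reads of such pairs are uncertain to that extent.

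In all 4 libraries the alpha and gamma rows, which each sum several isoforms, had more counts than any single beta gene. The values of the 4 libraries are listed in the order female A, male A, male B, male C throughout. The alpha row stood at 400, 352, 433 and 360 CPM (mean 386 ± 37.5 SD, n = 4). Its lowest value was in male A and its highest in male B. The gamma row stood at 298, 270, 309 and 346 CPM (mean 306 ± 31.5 SD, n = 4), lowest in male A and highest in male C. The gamma row was below the alpha row in every library, at 0.746, 0.768, 0.715 and 0.963 of its CPM. The ratio of male C stood apart from the other libraries.

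The deposited RPKM divides the CPM by the summed length of all exons of a row. For the merged rows that length is that of many alternative first exons, of which a transcript carries only 1. By deposited RPKM the alpha row averaged 15.6 ± 1.52 (SD, n = 4) and the gamma row 11.7 ± 1.21. Divided instead by the length of 1 transcript (the constant exons plus the mean variable exon, 5283 bases for alpha and 4783 for gamma), the levels were 73.0 ± 7.10 and 64.0 ± 6.58 CPM per kilobase. On that per-length scale the alpha level was 1.14 times the gamma level and 1.41 times the summed RPKM of all beta genes. Reads from the isoforms whose variable exons are missing from the rows would add to the clusters but only partly to these counts. The loss is uneven, with 5 of 14 isoform genes missing for alpha and 13 of 22 for gamma. Its effect on the ratio of alpha to gamma was not tested.

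**Figure D1:**
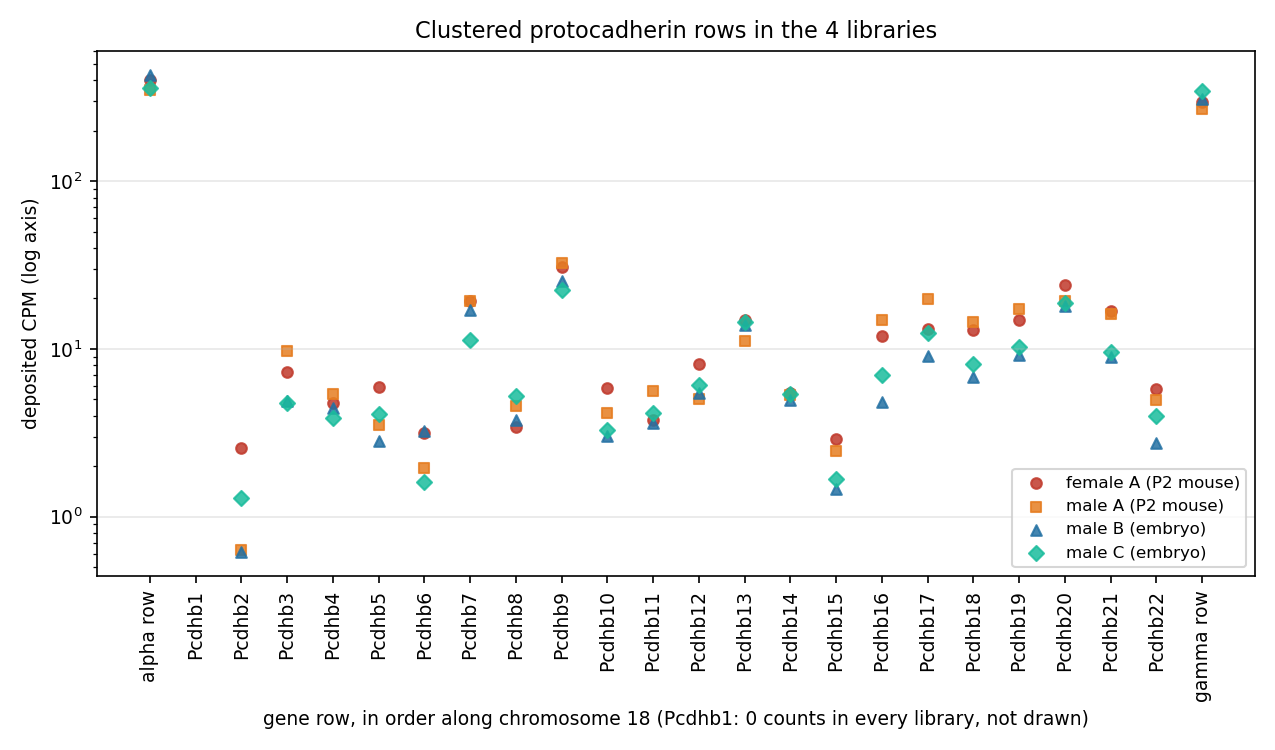
Deposited CPM (log axis) of each clustered protocadherin row in order along chromosome 18, with 1 point per library. The alpha and gamma rows lie between 270 and 433 CPM, whereas the 21 detected beta genes lie between 0.618 and 32.7 CPM.

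Among the beta genes, which differ in the extracellular domains that set binding specificity, levels spanned a 19.8-fold range of mean RPKM. Pcdhb9 was the highest at 30.7, 32.7, 25.5 and 22.4 CPM, with a mean RPKM of 9.11. Pcdhb20 followed at 24.2, 19.3, 18 and 18.9 CPM (mean RPKM 5.92), and Pcdhb7 at 19.2, 19.3, 17.0 and 11.2 CPM (mean RPKM 4.76). The lowest Pcdhb9 value, in male C, lay inside the range of Pcdhb20 in CPM, so these neighbours overlapped across libraries, although within each library Pcdhb9 was higher.

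Pcdhb13 came next by CPM at 14.9, 11.1, 13.9 and 14.5. Pcdhb17, at 13.1, 19.7, 9.04 and 12.4 CPM, had nearly the same mean CPM (13.6 for both) and, being shorter, the higher mean RPKM (4.15 against 3.69). The order of these neighbours did not exceed their spread. These 5 genes were the only beta genes whose mean RPKM lay above the median of all genes tested (3.60 RPKM). The median beta gene stood at 1.78 RPKM.

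At the other end, Pcdhb1, the first gene of the beta cluster, had 0 counts in every library. At the depth of these libraries, 0 allows a level of up to 0.107 to 0.173 CPM (3 counts). Pcdhb2, the next gene along, had 72, 11, 14 and 32 counts, or 2.57, 0.633, 0.618 and 1.29 CPM. It had the largest relative spread of all detected members, with a coefficient of variation of 71.7%, and female A was the highest library. The steadiest was Pcdhb14, at 5.49, 5.29, 4.94 and 5.42 CPM, with a coefficient of variation of 4.61%. The 4 most abundant beta genes together made up 40.9%, 37.8%, 48.2% and 41.9% of the beta counts, and Pcdhb9 alone held 14.0% to 16.5% in every library.

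The order of beta levels was similar in all libraries. Across the 21 detected beta genes, log2 RPKM of any 2 libraries had Pearson correlations of 0.88 to 0.93 and Spearman correlations of 0.79 to 0.90, as a description of points that share exon lengths, cell sort and library kit. Position along the cluster had a Spearman correlation of 0.41 with mean RPKM, and exon length one of 0.30. GC content of the annotated transcript ran from 39.1% (Pcdhb14) to 49.0% (Pcdhb12), with a Spearman correlation of -0.25 with mean RPKM.

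The comparison of pool descriptions divides the libraries into pairs. The beta genes were, in sum, higher in the P2 mouse pair, whereas the alpha and gamma rows were not. The summed beta level was 218, 218, 154 and 160 CPM, 1.39 times as high in the P2 mouse pair, with no overlap between the pairs. After scaling by the TMM factors, which correct for composition, the ratio was 1.28. The alpha row overlapped between the pairs (ratio 0.949). The gamma row did not overlap and was lower in the P2 mouse pair (ratio 0.867). All rows together summed to 916, 840, 896 and 866 CPM, with overlap. The beta genes made up 23.8% and 26% of that sum in the P2 mouse pair and 17.2% and 18.5% in the embryo pair.

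**Figure D2:**
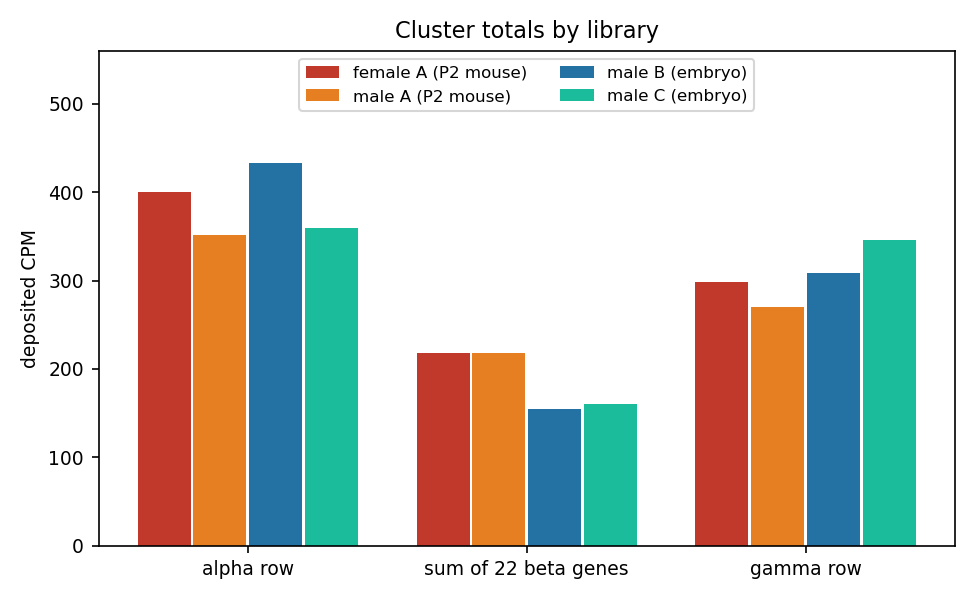
Deposited CPM of the alpha row, of the sum of the 22 beta genes and of the gamma row, with 1 bar per library. The beta sum is 218 CPM in both libraries of the P2 mouse pair and 154 and 160 in the embryo pair, and the gamma row is highest in male C at 346.

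In edgeR's quasi-likelihood test, adjusted by Benjamini-Hochberg over the 15568 genes tested, 5 of the 23 members tested passed an adjusted p of 0.05. That is 21.7% of the members, against 42.3% of all genes tested. Higher in the P2 mouse pair were 4 beta genes (22.3% of all genes were higher) and the gamma row was lower (20.0% of all genes were lower). The members' share was below the background, and the pairs differed across the whole transcriptome. Of the 23 members, 17 had a log2 fold change above 0, and their median was 0.33, against 0.02 for all genes tested. The range ran from -0.32 to 1.07.

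Pcdhb16 had the largest change of the members that passed. It stood at 12.0, 14.9, 4.81 and 6.99 CPM, with both P2 mouse libraries above both embryo libraries. Its log2 fold change was 1.07 (SE 0.253, edgeR adjusted p = 0.0117). Pcdhb18 showed the same order of pairs, at 12.9, 14.4, 6.84 and 8.15 CPM, with a log2 fold change of 0.75 (SE 0.204, adjusted p = 0.0203). Pcdhb21 stood at 16.7, 16.1, 9.00 and 9.56 CPM. The pairs did not overlap, and the log2 fold change was 0.71 (SE 0.177, adjusted p = 0.0145).

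Pcdhb19 was the member nearest inside the threshold, at 14.8, 17.4, 9.18 and 10.3 CPM. Its pairs did not overlap either, and its log2 fold change was 0.61 (SE 0.192, edgeR adjusted p = 0.0361). Pcdhb3 was the nearest outside, at 7.27, 9.72, 4.90 and 4.78 CPM, with a log2 fold change of 0.69 (SE 0.249, adjusted p = 0.0573). The 4 genes that passed lie in the distal part of the beta cluster, next to or near each other, with Pcdhb17 and Pcdhb20 between them. Pcdhb17 was also higher in both P2 mouse libraries but did not pass the test. The 4 genes together made up 25.9% and 28.8% of the beta counts in the P2 mouse pair and 19.3% and 21.9% in the embryo pair.

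The gamma row fell by 0.32 on the log2 scale in the P2 mouse pair (SE 0.0964, edgeR adjusted p = 0.0307). The alpha row had a log2 fold change of -0.19 (SE 0.113, adjusted p = 0.212) and did not pass. Among the abundant beta genes, Pcdhb9 had a log2 fold change of 0.29 (SE 0.144, adjusted p = 0.143) and Pcdhb7 one of 0.33 (SE 0.219, adjusted p = 0.255), and neither passed. Pcdhb20 stood at 0.13 (SE 0.168, adjusted p = 0.578), Pcdhb13 at -0.24 (SE 0.199, adjusted p = 0.363) and Pcdhb2 at 0.66 (SE 0.691, adjusted p = 0.475). Counting only whether the pairs overlap in CPM, 13 members of 23 (56.5%) were higher in both P2 mouse libraries, all of them beta genes, against 42.5% of all genes tested. The gamma row was the 1 member lower in both, against 30.8% of all genes (73.3% in either direction).

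These calls rested on few libraries. With 1 library left out, 1 side holds a single library, so for the pairs fold changes are given without p-values or numbers of genes called. Without female A or without male A most of these calls were lost, while far fewer of all genes were called as well. The members called also moved without male B or male C. The log2 fold changes ran from 0.81 to 1.32 for Pcdhb16, 0.62 to 0.85 for Pcdhb18, 0.66 to 0.73 for Pcdhb21 and 0.48 to 0.74 for Pcdhb19. They ran from -0.41 to -0.26 for the gamma row, -0.36 to -0.06 for the alpha row and 0.02 to 0.65 for Pcdhb7. A term for sex takes up the only female library. Fits with that term, here and below, thus compare male A with male B and male C, and are no separate check from leaving out female A. With sex as a term, Pcdhb16 alone passed (1.23, adjusted p = 0.0494), against 23.6% of all genes in either direction, and 0 members were lower, against 10.4%.

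The 4 beta genes that passed are also the 4 with the longest exons, 4662 to 7131 bases, against 2340 to 3787 bases for the 17 other detected beta genes. Of those 17, 13 had a fold change above 0, with a median of 0.29 and a range from -0.30 to 0.69. The 4 also have a low GC content, 41.2% to 43.0%. Across the 21 detected beta genes the log2 fold change had a Spearman correlation of 0.44 with exon length and -0.19 with GC content. With the offsets described next, these became -0.08 and 0.49. Across 15474 genes tested the correlation was 0.25 with exon length and -0.44 with GC content, as a description of genes that share the 4 libraries.

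When the model was given offsets for the transcripts' GC content and length, fitted over all genes of each library, none of the 4 beta genes passed. Such offsets take out any difference between the pairs that follows GC content or length, whatever its source. That source was not tested. The log2 fold changes were 0.43 for Pcdhb16 (SE 0.244, edgeR adjusted p = 0.211), 0.05 for Pcdhb18 (SE 0.198, adjusted p = 0.864), 0.09 for Pcdhb21 (SE 0.175, adjusted p = 0.714) and -0.28 for Pcdhb19 (SE 0.189, adjusted p = 0.294). The median over the members was 0.01. With these offsets 0 members were higher, against 12.8% of all genes, and 2 were lower, against 20.3% (33.1% in either direction). The 2 were the alpha row (-0.56, adjusted p = 0.00635) and Pcdhb14 (-1.10, adjusted p = 0.0109). The gamma row stood at -0.21 (adjusted p = 0.0964).

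The offsets took GC content and length from the longest M21 transcript, which is not the exon that was counted for every member. For Pcdhb14 that transcript is 2.53 times as long as the counted exon (8695 against 3438 bases), for Pcdhb22 2.15 times and for Pcdhb6 1.52 times, whereas for the 4 long beta genes the ratio was 0.99 to 1.01. With the exon length of the row in place of the transcript length, an alternative added after seeing the data, Pcdhb14 no longer passed (-0.72, edgeR adjusted p = 0.0523). The GC content in this setting was still that of the longest M21 transcript, for Pcdhb14 the one of 8695 bases. The alpha row (-0.94, adjusted p = 0.000440) and the gamma row (-0.64, adjusted p = 0.00204) were then lower, against 20.5% of all genes. Again 0 beta genes were higher, against 12.7% (33.2% in either direction). For the 2 merged rows the exon length sums alternative first exons, at 24670 and 26094 bases, against 5359 and 5024 for the longest M21 transcript. Their 2 values thus rest on a length that no single transcript has. With the M21 transcript nearest in length to the row, likewise added, 0 members were higher, against 12.3%, and the alpha row and Pcdhb14 were lower, against 19.9%, with Pcdhb14 at -1.15. For every member but Pcdhb22 (2266 against 6609 bases) the nearest transcript has the length of the longest. This setting is therefore no further check on the other members.

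**Figure D3:**
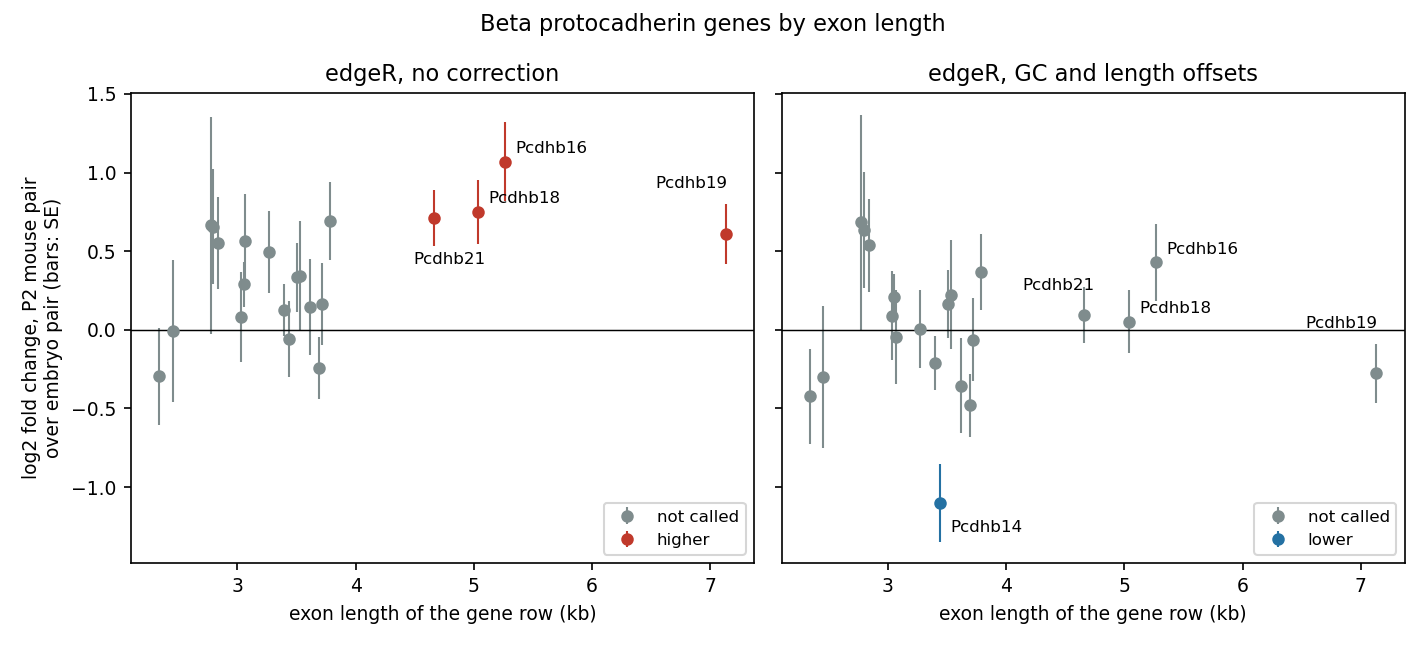
Log2 fold change between the pairs (points, with SE bars) of the 21 detected beta genes against the exon length of the row in kilobases, without correction (left) and with GC and length offsets (right). The 4 genes of at least 4662 bases are called higher on the left (0.61 to 1.07) and lie between -0.28 and 0.43 on the right, where Pcdhb14 is called lower at -1.10.

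The comparison named in the title, female against male, called no member. In the same edgeR test, fitted for sex, 0 of 23 members and 0.0% of the 16708 genes tested passed. At an unadjusted p under 0.05 there were 0 members and 129 genes, and DESeq2 called 0 members and 5 genes. The fit takes the spread of the single female library from that of the males, who include both pool descriptions. The difference between the pairs therefore counts as spread. The median coefficient of variation over genes was 0.359, against 0.157 in the fit of the pairs. With no gene called, this test cannot show that the members do not differ between the sexes. Pcdhb2 had the largest member difference, 2.57 CPM in female A against 0.633, 0.618 and 1.29 CPM in the males, a log2 fold change of 1.49 (SE 0.698, adjusted p = 0.951). Female A lay above all males, on 72 counts.

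The alpha row differed by -0.03 (SE 0.318, edgeR adjusted p = 0.993) and the gamma row by -0.15 (SE 0.331, adjusted p = 0.959) between female and male on the log2 scale. Both rows had female A inside the range of the males. Of the 23 members, 16 had a log2 fold change above 0, from -0.49 to 1.49. With pool description as a term, 0 members and 4 genes (0.0239%) were called. Without male A, the female stands against the embryo pair, so sex cannot be told apart from pool description.

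Most of the genes known to act on the protocadherin promoters were higher in the P2 mouse pair. Of 25 such regulators, 18 were higher in the P2 mouse pair and 1 was lower by edgeR's test, against 22.3% of all genes higher and 20.0% lower. Their median log2 fold change was 0.92, against 0.02 for all genes tested. Their summed level was 1594 and 1567 CPM in the P2 mouse pair and 943 and 931 in the embryo pair. With GC and length offsets, 10 were higher, against 12.8% of all genes, and 1 was lower, against 20.3%, with a median of 0.30.

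Smc3, a core subunit of the cohesin ring, stood at 82.8, 85.5, 16.1 and 16.5 CPM, with a log2 fold change of 2.26 (SE 0.123, edgeR adjusted p = 0.000105). Nipbl, which loads cohesin onto DNA, stood at 32.4, 37.5, 7.15 and 6.26 CPM, with a log2 fold change of 2.27 (SE 0.176, adjusted p = 0.000155). For both, the pairs were far apart. Dnmt3b, a de novo DNA methyltransferase that methylates protocadherin promoters in the early embryo, was low at 0.819, 1.78, 0.353 and 0.0402 CPM, on 23, 31, 8 and 1 counts. Its log2 fold change was 2.59 (SE 0.867, adjusted p = 0.0449). It did not pass with sex as a term (adjusted p = 0.0889), and the value ran from 1.68 to 4.70 with a library left out. Dnmt3a, the other de novo enzyme, was the 1 regulator lower in the P2 mouse pair, at 86.8, 91.8, 139 and 142 CPM (-0.76, SE 0.0954, adjusted p = 0.000703).

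Ctcf, named after its values were seen because it binds the protocadherin promoters, stood at 47.9, 50.5, 31.6 and 30.4 CPM. Its pairs did not overlap, and its log2 fold change was 0.55 (SE 0.125, edgeR adjusted p = 0.00959). With the offsets it was 0.30 (adjusted p = 0.0918), with sex as a term 0.60 (adjusted p = 0.0521) and without male A 0.51.

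Of 20 genes whose proteins bind, cut or signal with the protocadherins, 7 were higher in the P2 mouse pair and 4 lower by the same test, against 22.3% and 20.0% of all genes, with a median of -0.04. Adam10, the protease that sheds the protocadherin ectodomain, stood at 278, 256, 132 and 116 CPM (log2 fold change 0.99, SE 0.100, edgeR adjusted p = 0.000318). Nckap1, a subunit of the actin-regulating WAVE complex, changed by 0.95 (SE 0.0974, adjusted p = 0.000343). Rock1, a kinase that acts on the actin cytoskeleton, changed by 1.36 (SE 0.239, adjusted p = 0.00311). In each of these 3 genes both P2 mouse libraries lay above both embryo libraries. With GC and length offsets the values were 0.37 for Adam10 and 0.58 for Nckap1, which still passed, and 0.46 for Rock1 (adjusted p = 0.162), which did not.

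Of the 4 lower partners, the 3 with the largest changes are a kinase, a protease subunit and an actin regulator. Cdk5, a neuronal kinase, stood at 159, 155, 266 and 252 CPM and changed by -0.84 (SE 0.0864, edgeR adjusted p = 0.000351). Psen2, a catalytic subunit of the gamma-secretase that cuts protocadherins after shedding, changed by -0.74 (SE 0.212, adjusted p = 0.0244). Wasf1, another WAVE subunit, changed by -0.51 (SE 0.133, adjusted p = 0.0179). With the offsets Cdk5 still passed at -0.48, whereas Psen2 (-0.33, adjusted p = 0.245) and Wasf1 (-0.39, adjusted p = 0.0581) did not. Without male A, Psen2 stood at -0.48. Wasf1 did not pass with sex as a term (adjusted p = 0.0698). Its value ran from -0.67 to -0.38 with a library left out. Ret was named after its values were seen, because the design text places the reporter at its locus and its product associates with protocadherins. It stood at 233, 232, 272 and 240 CPM. Its log2 fold change of -0.25 (SE 0.0942, adjusted p = 0.0660) did not pass, but it was called lower with the offsets (-0.32, adjusted p = 0.0334). The value ran from -0.38 to -0.17 with a library left out.

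The non-clustered protocadherins, related cadherins encoded by single genes elsewhere, numbered 12, of which 11 could be tested (Pcdh8 could not). Of these, 3 were higher in the P2 mouse pair and 2 were lower, against 22.3% and 20.0% of all genes, with a median log2 fold change of 0.30. Pcdh9 stood at 89.8, 106, 32.7 and 35.7 CPM (log2 fold change 1.4, SE 0.133, edgeR adjusted p = 0.000258), and passed with the offsets at 0.64. Pcdh20 stood at 3.21, 3.28 and 0.794 CPM and at 0 counts in male C (2.94, SE 0.937, adjusted p = 0.0378). It did not pass with the offsets (adjusted p = 0.0941) or with sex as a term (0.158). The value ran from 1.86 to 9.21 with a library left out. Pcdh11x changed by 0.78 (SE 0.188, adjusted p = 0.0124) without offsets and stood at -0.39 with them (adjusted p = 0.145). It also did not pass with sex as a term (0.0902). Without offsets the value ran from 0.64 to 0.87 with a library left out.

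Pcdh12, known from endothelial cells, was lower at 2.81, 3.11, 6.04 and 9.88 CPM (-1.55, SE 0.311, edgeR adjusted p = 0.00572). It did not pass with sex as a term (adjusted p = 0.0758), and the value ran from -1.87 to -1.19 with a library left out. Pcdh1, an adhesion protein of epithelia and other tissues, changed by -0.90 (SE 0.165, adjusted p = 0.00376), and stood at -0.80 without male A. With the offsets, 1 non-clustered gene was higher and 5 were lower, against 12.8% and 20.3% of all genes. No gene of the 3 lists was called between female and male.

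**Figure D4:**
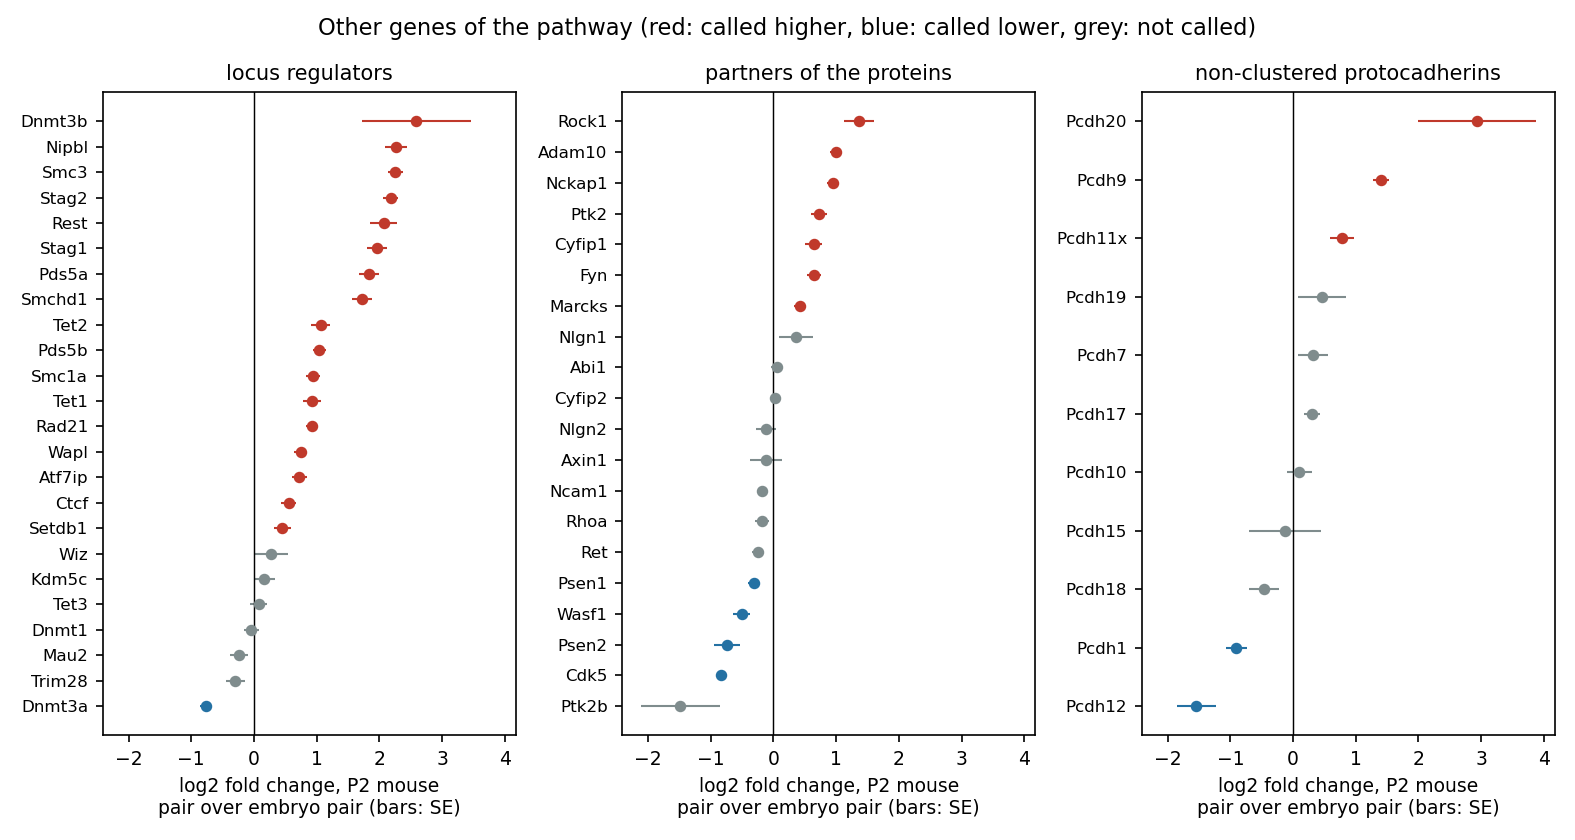
Log2 fold change between the pairs (points, with SE bars) for the locus regulators, the partners of the proteins and the non-clustered protocadherins that could be tested, with 1 regulator not drawn. Called higher are 18 of 25 regulators, 7 of 20 partners and 3 of 11 non-clustered genes, where 22.3% of all genes are called higher.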

How the data were processed

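RNA was measured in 4 libraries of sorted cells, amplified with a SMARTer Ultra Low Input kit per the labels' protocols. The submitters' processing notes name featureCounts 1.4.5 (Subread) and GRCm38.p2, and each deposited count is the number of reads given to a gene row. The deposited CPM is the count scaled by the sum of all gene counts in its library, as a recomputation gave, and the deposited RPKM is, per the file headers and the same recomputation, that CPM per kilobase of the row's exons. The sources used here name no aligner, annotation release or strand setting, and do not say how multiply matching reads were handled. Antisense rows overlap the alpha row (Gm10545, 2790 bases) and the gamma row (Gm26672, 1647 bases), and without a stated strand their reads cannot be told apart.

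Symbols came from GENCODE M21 for 40254 of 41388 gene identifiers (97.3%). The members and lists were chosen with earlier results of these data known. Counts were fitted with edgeR 4.0.16 (TMM, filterByExpr, quasi-likelihood F test, Benjamini-Hochberg adjustment over all genes tested, threshold 0.05) in R 4.3.3, separately for pool description and for sex, after the script was tested on simulated data. Alternatives used DESeq2 1.42.0, limma 3.58.1 (voom), size factors, other filters, a term for the other factor, each library left out, and smooth offsets for GC content and length (mgcv 1.9.3). Offsets that used the transcript nearest in length, the exon length of the row, or sex as a term together with the offsets, and levels per 1 transcript, were added after seeing the data. Named were, in each cluster, the 4 members with the highest and the 2 with the lowest mean CPM, the c-type members, every member called, those nearest the threshold, and the 3 called genes per direction with the largest change in each other list. Pcdhb17, Pcdhb14, Pcdhb12, Pcdhb22 and Pcdhb6 were named in addition after their values were seen. A count of 0 was given a limit of 3 counts, which covers counting error only. With 17388493 to 28066448 counts per library, 23 members had at least 10 counts in every library. No sequence is printed.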

Additional observations from a re-analysis of the deposited data

How the results depend on the processing

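The numbers of members called between pool descriptions moved with several settings and did not with the scaling, the CPM filter, DESeq2 or limma-voom, which all gave 4 higher and 1 lower. With no filter on low counts 5 were higher, Pcdhb3 being added, and 1 was lower. With GC and length offsets 0 members were higher and 2 lower, against 12.8% and 20.3% of all genes. The nearest transcript, as long as the longest for every member but Pcdhb22 and so no further check, also gave 0 and 2, against 12.3% and 19.9%. The row's exon length gave 0 and 2 as well, against 12.7% and 20.5%, the 2 being the merged rows with their summed lengths. With sex as a term 1 was higher and 0 lower, against 13.3% and 10.4% of all genes. With both, 0 were higher and 1, the alpha row, was lower, against 776 and 1193 of all 15474 genes. Leaving out 1 library, which leaves a single library on 1 side, moved the members called and also the number of all genes called. Among all genes, 6584 were called, 3679 with sex as a term, 1969 with both, and 3616 to 6926 with a library left out. Between sexes 0 genes were called, 2 with no filter, 5 with DESeq2, 3 with offsets, 4 with pool description as a term, and 5 to 3616 with a male left out, the last without male A, where sex and pool description coincide.

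Of the locus regulators, 18 were higher, 10 with offsets, 10 with the nearest transcript, 11 with the row's length and 8 with offsets and sex. Of all genes, 22.3% were higher, 12.8%, 12.3% and 12.7% under the 3 offsets and 13.3% with sex. Lower were 20.0%, 20.3%, 19.9%, 20.5% and 10.4% in the same order. With offsets and sex, 776 of 15474 genes were higher and 1193 lower. With a library left out, the number of all genes called moved as well. Of the partners, 7 were higher, 4 under each of the 3 offsets and 2 with offsets and sex, and 4 were lower, 2 with sex, 1 with both and 1 to 6 with a library left out. Of the non-clustered protocadherins, 3 were higher, and 1 under each offset, with sex and with both. Lower were 2, 5 with offsets, 5 with the nearest transcript, 4 with the row's length, 1 with sex and 1 with both. The numbers for partners and non-clustered genes also moved with a library left out.

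Directions reversed for these genes, among those the text follows by the naming rule. Pcdhb19 (0.61) was -0.28 with offsets, -0.32 with the nearest transcript, -0.18 with the row's length and -0.17 with offsets and sex. Pcdhb20 (0.13) was -0.21, -0.25, -0.19 and -0.40 in the same order, -0.036 with sex, and -0.031 to 0.27 with a library left out. Pcdh11x (0.78) was -0.39, -0.44, -0.29 and -0.47. Pcdhb2 (0.66) was -0.69 with sex, -0.69 with both, and -0.69 to 1.30 with a library left out, lowest without female A. Between sexes, the alpha row (-0.03) was 0.17 with pool description as a term and -0.11 to 0.10 with a male left out, and the gamma row (-0.15) was 0.12 with that term. Other genes also changed sign. With offsets Pcdhb4 (0.16), Pcdhb11 (0.15) and Pcdhb22 (0.57) were at -0.06, -0.35 and -0.04, and with sex Pcdhb5 (0.34) and Pcdhb12 (0.08) at -0.085 and -0.31. Among the lists, Wapl (0.74) lost its call with offsets, at -0.08, and Abi1 (0.06), Pcdh10 (0.10) and Pcdh17 (0.30) were called lower, at -0.51, -0.68 and -0.39. The cause was not tested.

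The RPKM of the alpha row, 15.6, was 17.6 over exon bases not shared with another row and 73.0 over the length of 1 transcript, and that of the gamma row, 11.7, was 64.0, since the divisor alone changed. No paired analysis was possible because the female and male groups share a single replicate letter, A, and the pool description pairs share none. With 1 animal behind each library and 2 libraries on each side, sex, pool description and cell mix cannot be separated beyond these fits, and the depth allows no statement on Pcdhb1 below its limit.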

Other observations

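Other rows of the locus were read in the same libraries, in the order female A, male A, male B and male C. Gm26672, a reverse-strand row overlapping the gamma cluster, stood at 9.48, 7.42, 7.94 and 9.32 CPM, far below the gamma row. Gm10545 and Gm10544, reverse-strand rows within the alpha cluster, stood at 1.18, 1.09, 0.485 and 0.723 CPM and at 1.89, 1.61, 0.882 and 0.482 CPM, higher in both P2 mouse libraries. These rest on 33, 19, 11 and 18 counts and on 53, 28, 20 and 12 counts. Taf7, between the beta and gamma clusters, stood at 53.8, 58.8, 45.3 and 45.7 CPM, also higher in both P2 mouse libraries. Beyond the gamma cluster, the actin nucleator gene Diaph1 stood at 7.80, 7.76, 10.1 and 7.59 CPM, with overlap between the pairs. Hdac3, a histone deacetylase gene, stood at 105, 113, 115 and 114 CPM, slightly lower in both P2 mouse libraries. Of all genes tested between the pairs, 42.5% were higher in both P2 mouse libraries and 30.8% lower in both, so such an order is common. No test was made of these rows.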
